A study of Mus musculus with 4 samples.

Results

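Promoter methylation was examined for 9 genes that are silenced by DNA methylation in human lung cancer, Cdkn2a, Cdkn2b, Rassf1, Mgmt, Apc, Dapk1, Rarb, Cdh13 and Timp3, out of 55413 genes of the mouse annotation. The genes were chosen by name. A promoter was the window from 1000 bp upstream to 500 bp downstream of a transcription start site (TSS) of build mm10 (GRCm38), and alternative TSSs of a gene were kept apart. This gave 16 windows. A CpG was used where at least 20 reads covered it in every tumor, which left 14 windows of all 9 genes with data, and 20135 genes and 32347 windows in the whole series. Because neighbouring TSSs can share all of their measured CpGs, the 14 windows held 11 distinct sets of sites with 354 sites in all.

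In a normal cell, CpG-rich promoters carry little methylation whether or not the gene is transcribed. In many carcinomas, methylation spreads over some of them, and a promoter that is densely methylated is stably silent. The 9 genes act on different processes. Cdkn2a encodes p16Ink4a, an inhibitor of the cyclin D kinases, and, from another promoter and reading frame, p19Arf, which stabilizes p53 through Mdm2. Cdkn2b encodes the related inhibitor p15Ink4b. Rassf1 encodes a scaffold of the Hippo pathway, Apc the scaffold that leads β-catenin to degradation, Dapk1 a death-associated kinase, and Rarb a receptor for retinoic acid. Mgmt encodes the enzyme that removes alkyl groups from guanine, Cdh13 the T-cadherin on the cell surface, and Timp3 a matrix-bound inhibitor of metalloproteinases.

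The tumors came from a mouse lung adenocarcinoma line with mutant p53 (p53R172HΔg/+). The parental line (344SQP) and the line derived from it with acquired resistance to anti-PD1 (344SQR) were grown under the skin of the leg of syngeneic female 129Sv/Ev mice of 12 to 16 weeks of age. Every mouse was given anti-PD1 (10 mg/kg, 4 doses, beginning on day 4), and tumors were taken 24 h after the last dose, 2 per line and each from another mouse. No tumor without anti-PD1 was analysed here, and the DNA is from whole tumors, so that host cells are included and a change in the share of cells of a type cannot be told apart from a change of methylation within them. Methylation was read by reduced representation bisulfite sequencing, which samples CpG-rich fragments of the genome, and a value is the percent of reads at a CpG that were methylated. The coverage summed over all CpGs was 116794455 and 138331886 calls in replicates 1 and 2 of 344SQP, and 160548303 and 174689402 calls in replicates 1 and 2 of 344SQR. Values below are given in that order. The value of a window is the mean over its CpG sites, each strand of a CpG being a site.

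The members fell into an unmethylated and a partly methylated class in both lines. The promoters of Cdkn2b, Rassf1, Apc and the p19Arf transcript of Cdkn2a had means between 0.950% and 3.21% in every tumor. Timp3 came next, at 6.37% to 14.6%. Rarb lay between 18.7% and 32.6%, Dapk1 between 24.1% and 43.5%, Cdh13 between 35.7% and 62.3%, and Mgmt between 41.0% and 75.5%. Neighbours in this order from Rarb to Mgmt overlapped in their tumor values, whereas the range of Timp3 touched neither the unmethylated promoters nor Rarb.

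**Figure D1:**
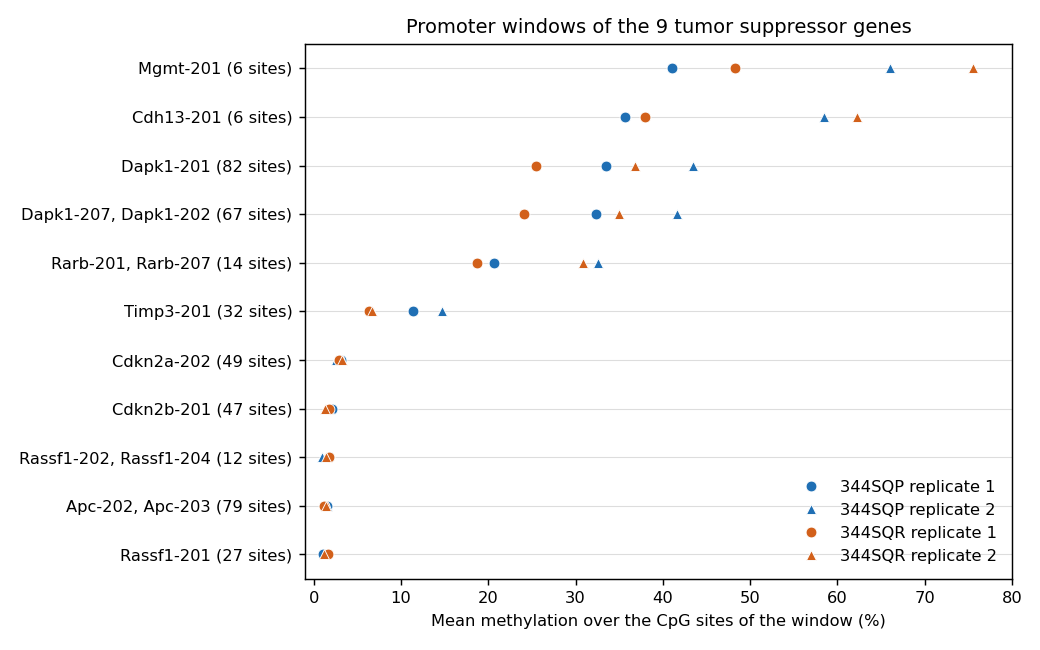
Mean methylation (%) of the 11 distinct sets of CpG sites in the promoter windows, ordered by their mean over the 4 tumors; circles are replicate 1, triangles replicate 2, blue 344SQP and orange 344SQR. Both 344SQR tumors lie at 6.37% and 6.69% for Timp3, below 11.4% and 14.6% in 344SQP, and for Mgmt and Cdh13 the replicate 2 tumors of both lines lie above the replicate 1 tumors.

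Between the lines, 5 of the 14 member windows passed a test modelled on that of the study, which used methylKit and Stouffer's z score: here a likelihood ratio test per site on the reads pooled by line, combined over the window by a signed Stouffer z score, at a false discovery rate (FDR) under 0.05 over all windows. In the whole series 35.3% of windows passed. Timp3 and the 3 windows of Dapk1 were lower in 344SQR (4 of 14, against 26.9% of all windows), and Mgmt was higher (1 of 14, against 8.42%). The median difference over the member windows was −0.322 points, against −0.201 points over all windows. In 2 of the 14 windows, Timp3 and Apc, both 344SQR tumors lay below both 344SQP tumors (31.4% of all windows), and in 0 both lay above (8.06% of all windows).

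At single CpGs, 58 of the 354 member sites were lower and 20 higher in 344SQR at an FDR under 0.05 over all 1081201 sites, where 18.4% and 6.04% of all sites were. Both 344SQR tumors were below both 344SQP tumors at 69 member sites (21.2% of all sites) and above them at 24 (8.27% of all sites). The split of the called sites depended on single tumors. Without replicate 1 of 344SQP it was 70 lower and 13 higher, without replicate 2 of 344SQP 31 lower and 21 higher, without replicate 2 of 344SQR 67 lower and 7 higher, and without replicate 1 of 344SQR 44 lower and 34 higher.

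This test takes every read as independent. edgeR's quasi-likelihood test on the summed reads of a window, which includes the spread between tumors of a line, called 0 of the 14 member windows, with adjusted p from 0.286 to 0.981, and 0.161% of all windows. At an unadjusted p under 0.05 edgeR counted 1 member window, that of Timp3, and 2708 windows in all. For a single value, the two-sided exact permutation test with 2 tumors against 2 cannot go below p = 0.333.

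Timp3 was the member whose lines were clearest apart. Its window on chromosome 10 (ENSMUSG00000020044, plus strand, TSS at 86300372) held 32 sites with 33 to 258 reads each. Methylation was 11.4% and 14.6% in the 344SQP tumors and 6.37% and 6.69% in the 344SQR tumors. The mean was 13.0% ± 2.28 (SD, n = 2) in 344SQP and 6.53% ± 0.227 (SD, n = 2) in 344SQR, a difference of −6.50 points that exceeded the SD of either line (FDR = 5.48e-42 by the read-based test, log2 odds ratio −1.25 and adjusted p = 0.286 by edgeR).

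The difference was largest in the sites before the TSS. The 7 sites before it had values of 19.9% and 20.6% in 344SQP and 2.13% and 4.92% in 344SQR, a difference of −16.7 points. In the 25 sites of the 5′ untranslated exon it was 9.05% and 13.0% against 7.56% and 7.19%. With the window narrowed to 250 bp on each side of the TSS the difference grew to −11.8 points. The largest difference was at 86300325, 47 bp upstream of the TSS, where 19 of 54 reads (35.2%, 95% Wilson confidence interval 23.8–48.5) and 12 of 34 (35.3%, 21.5–52.1) were methylated in 344SQP, and 1 of 51 (1.96%, 0.347–10.3) and 2 of 71 (2.82%, 0.776–9.70) in 344SQR. Such intervals cover counting error only, since copies of a molecule are not marked. Of the 9 sites from 86300313 to 86300388, 6 were called lower and 0 higher, and of the 23 sites from 86300581 to 86300800, in the exon, 8 were called lower and 2 higher.

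The bases just before the Timp3 TSS are shown because they carry this difference (chr10:86300252-86300371, GRCm38, plus strand, ending 1 bp before the TSS, with the measured CpGs in capitals). Of the 12 CpGs in these 120 bases, the 5 nearest the TSS were measured.
Timp3: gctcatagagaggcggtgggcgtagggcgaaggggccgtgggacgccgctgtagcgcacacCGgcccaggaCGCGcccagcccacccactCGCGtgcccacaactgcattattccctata

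Dapk1 combined a CpG-dense promoter with partial methylation in every tumor. Its TSSs at 60601947, 60601957 and 60602211 on the plus strand of chromosome 13 (ENSMUSG00000021559) have overlapping windows. The windows of the upstream TSSs shared 67 sites and had values of 32.3% and 41.7% in 344SQP and 24.1% and 34.9% in 344SQR, a difference of −7.44 points. The window of the TSS at 60602211 held 82 sites with 25 to 230 reads each, at 33.5% and 43.5% against 25.4% and 36.8%. Its mean was 38.5% ± 7.03 (SD, n = 2) in 344SQP and 31.1% ± 8.05 (SD, n = 2) in 344SQR, and the lines overlapped, because replicate 2 of 344SQR was above replicate 1 of 344SQP.

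By the read-based test the difference of −7.36 points in this window had an FDR of 4.16e-69, and by edgeR the adjusted p was 0.767. Its size depended on each tumor. It was −12.3 points without replicate 1 and −2.38 points without replicate 2 of 344SQP, and −1.66 points without replicate 1 and −13.1 points without replicate 2 of 344SQR. In the narrower window of 250 bp on each side it was −4.56 points. For the sites shared by the upstream TSSs it was −12.1 and −2.76 points without replicates 1 and 2 of 344SQP, and −2.03 and −12.8 points without replicates 1 and 2 of 344SQR. All of these values passed the read-based test.

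Within the Dapk1 promoter the sites did not move together. The 21 sites upstream of the TSS at 60601947 had 32.6% and 43.4% methylation in 344SQP and 19.0% and 24.5% in 344SQR, so that here the lines were apart. In the 32 untranslated sites that follow, the values were 28.0% and 39.0% against 23.0% and 38.2%. At 60601952, just after the TSS, methylation was 22.2% and 18.6% in 344SQP, 24.7% in replicate 1 and 64.2% in replicate 2 of 344SQR, and 4 sites of the intron (60602614, 60602620, 60602622 and 60602624) were likewise highest in replicate 2 of 344SQR, at 75.7% to 83.6%. The largest difference was −35.5 points at 60602676 in the intron, with 51.2% of 43 reads (95% Wilson interval 36.8–65.4) and 60.5% of 43 reads (45.6–73.6) methylated in 344SQP against 21.9% of 64 reads (13.5–33.4) and 18.8% of 85 reads (11.9–28.4) in 344SQR.

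The stretch before the TSS at 60601947 is shown for the density of its CpGs and because the lines were apart there (chr13:60601827-60601946, GRCm38, plus strand, measured CpGs in capitals). It holds 21 CpGs in 120 bases, of which 18 were measured.
Dapk1: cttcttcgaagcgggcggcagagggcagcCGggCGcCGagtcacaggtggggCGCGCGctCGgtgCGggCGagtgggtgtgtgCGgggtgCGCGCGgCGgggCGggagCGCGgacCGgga

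For promoters this dense in CpGs, the methylation of Dapk1 was high. The ratio of observed to expected CpGs, which corrects the CpG count for base composition, was 0.869 and 0.867 in the windows of the upstream TSSs and 0.909 in that of the TSS at 60602211, each higher than in at least 91.0% of all windows tested. Among the 5715 windows with a ratio of at least 0.8, the median methylation was 1.26%, and 96.2%, 96.2% and 96.3% of them were less methylated than the respective Dapk1 windows. The p19Arf window of Cdkn2a had a ratio of 0.954 and Apc of 0.837. Their methylation was low, with means of 2.94% and 1.41% over the tumors, though above that of 85.9% and 66.5% of this class. Mgmt was at the other end with a ratio of 0.348. The median of all windows with a ratio from 0.2 to 0.4 was 61.0%, and 47.8% of them were less methylated than Mgmt. Cdh13, with a ratio of 0.599, and Rarb, with 0.582 and 0.469, were like Dapk1 high for their class. They were more methylated than 87.8% and 77.6% of the windows with a ratio from 0.4 to 0.6, whose median was 3.51%.

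**Figure D2:**
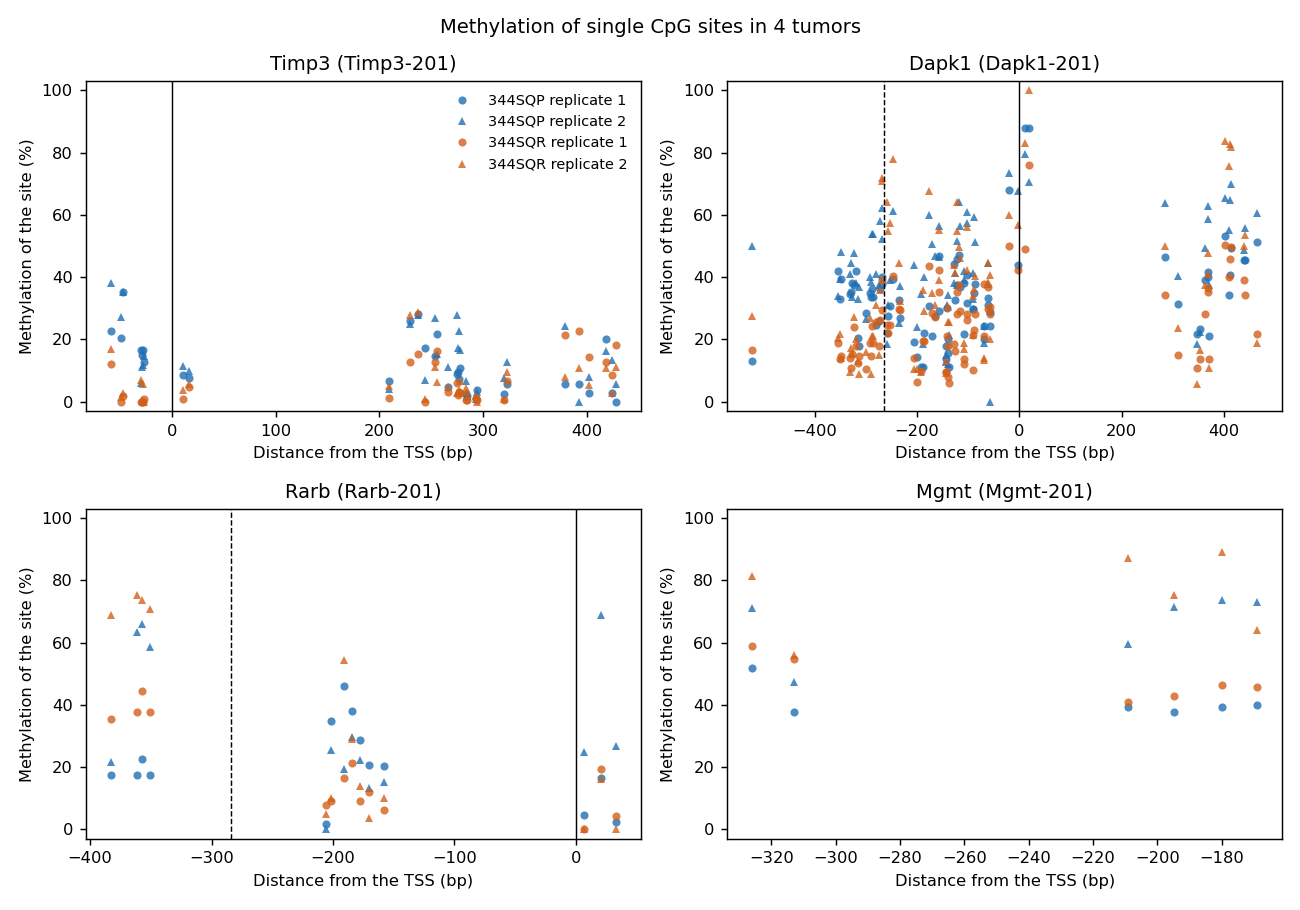
Methylation (%) of single CpG sites against their distance (bp) from the TSS in Timp3, Dapk1, Rarb and Mgmt, each point 1 site in 1 tumor; blue is 344SQP, orange 344SQR, circles replicate 1 and triangles replicate 2, a solid line the TSS of the named transcript and a dashed line the other TSS of the gene that is farthest upstream. Of the 7 Timp3 sites upstream of the TSS, 5 were called lower in 344SQR, while at Mgmt the replicate 2 tumors lie above the replicate 1 tumor of the same line at each of the 6 sites.

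Rarb has TSSs at 16575543 and 16575827 on the minus strand of chromosome 14 (ENSMUSG00000017491), and its windows held the same 14 sites with 30 to 98 reads. Their mean was 20.6% and 32.6% in 344SQP and 18.7% and 30.8% in 344SQR, so that the replicate 1 tumors were alike and the replicate 2 tumors were alike, about 12 points higher. The mean of the lines was 26.6% ± 8.43 and 24.8% ± 8.59 (SD, n = 2 each), and the difference of −1.85 points did not pass the test (FDR = 0.0713). Without replicate 1 of 344SQP it was −7.81 points and without replicate 2 of 344SQR −7.92 points, both past the threshold, whereas without replicate 2 of 344SQP it was 4.11 and without replicate 1 of 344SQR 4.22 points, neither past it.

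This small mean difference hid 3 stretches of CpGs with unlike patterns. At 16575510 to 16575536, in the 5′ untranslated exon, 3 sites were methylated at 40.2% in replicate 2 of 344SQP and at 7.94%, 7.97% and 5.38% in the other tumors, in order. At 16575701 to 16575749, 7 sites had 27.2% and 17.9% in 344SQP and 11.7% and 18.1% in 344SQR. At 16575894 to 16575926, upstream of both TSSs, 4 sites had 18.8% and 52.5% in 344SQP and 38.9% and 72.2% in 344SQR. In this last stretch the tumors of the lines overlapped, and 1 site was called, 16575926, where 17.5% of 40 reads (95% Wilson interval 8.75–31.9) and 21.7% of 60 reads (13.1–33.6) were methylated in 344SQP and 35.6% of 45 reads (23.2–50.2) and 68.8% of 64 reads (56.6–78.8) in 344SQR (FDR = 1.70e-06 among all sites). Narrowed to 250 bp on each side of the TSS at 16575543, the window leaves this stretch out and its difference was −10.6 points (FDR = 3.90e-09). The threshold was also passed with coverage minimums of 10 reads (−5.30 points) and 50 reads (−7.63 points) and with reads thinned to equal coverage (−1.60 points).

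The called site at 16575926 and its 3 neighbours, which were not called, lie in the following bases (chr14:16575877-16575947, GRCm38, minus strand, from 120 to 50 bp upstream of the TSS at 16575827, measured CpGs in capitals).
Rarb: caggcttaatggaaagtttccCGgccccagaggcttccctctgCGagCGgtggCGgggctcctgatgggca

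Mgmt was the only member called higher in 344SQR. Its window on chromosome 7 (ENSMUSG00000054612, plus strand, TSS at 136894614) held 6 sites with 41 to 141 reads, all lying 326 to 169 bp before the TSS. Their mean was 41.0% and 66.1% in 344SQP and 48.2% and 75.5% in 344SQR. By line it was 53.5% ± 17.7 (SD, n = 2) and 61.8% ± 19.3 (SD, n = 2), a difference of 8.31 points that was smaller than the SD of either line (FDR = 7.28e-06 by the read-based test, adjusted p = 0.892 by edgeR).

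The gap between replicates 1 and 2, 25.1 points in 344SQP and 27.3 points in 344SQR, was wider than that between the lines, and the call rested on single tumors. Without replicate 1 of 344SQP the difference was −4.21 points and without replicate 2 of 344SQR −5.33 points, both short of the threshold, and without replicate 2 of 344SQP and replicate 1 of 344SQR it was 20.8 and 22.0 points. The largest difference was 14.6 points at 136894405, with 39.3% of 61 reads (95% Wilson interval 28.1–51.9) and 59.5% of 42 reads (44.5–73.0) in 344SQP and 40.9% of 93 reads (31.4–51.0) and 87.1% of 101 reads (79.2–92.3) in 344SQR.

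The measured part of the Mgmt promoter is shown for its few CpGs (chr7:136894274-136894454, GRCm38, plus strand, measured CpGs in capitals). It holds 8 CpGs in 181 bases, of which 6 were measured.
Mgmt: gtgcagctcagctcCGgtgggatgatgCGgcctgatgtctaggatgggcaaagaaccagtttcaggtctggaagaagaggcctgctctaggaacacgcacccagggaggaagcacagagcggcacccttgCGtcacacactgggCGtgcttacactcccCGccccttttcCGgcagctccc

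Cdh13 showed the same order of tumors. Its 6 sites with 139 to 279 reads lay in intron 1, from 292 to 355 bp downstream of the TSS at 118283733 (chromosome 8, ENSMUSG00000031841, plus strand). Methylation was 35.7% and 58.4% in 344SQP and 38.0% and 62.3% in 344SQR, with line means of 47.0% ± 16.1 and 50.1% ± 17.2 (SD, n = 2 each). The difference of 3.08 points was within the spread of each line (FDR = 0.0738). It was −8.30 points without replicate 1 of 344SQP and −9.07 points without replicate 2 of 344SQR, and 14.5 and 15.2 points without replicate 2 of 344SQP and replicate 1 of 344SQR, each of these past the threshold.

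Past the window end at 118284233, the next measured run in Cdh13 (118284393 to 118284823, 22 intron sites with 56 to 304 reads) had 21.5% and 47.7% methylation in 344SQP and 44.0% and 65.0% in 344SQR. Of these sites, 15 were called higher and 0 lower, against 6.97% and 29.7% of all sites outside promoter windows. Replicate 2 of 344SQP nevertheless stood above replicate 1 of 344SQR in the mean.

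In Mgmt, Cdh13 and both windows of Rarb, replicate 2 was at least 10 points above replicate 1 in both lines. These are 4 of 14 member windows, the Rarb windows holding the same sites, against 6.27% of all windows. The median methylation over all windows was 2.05%, so this share is not that of windows as methylated as these. The labels give no batch, and what the tumors of a number share was not tested. The promoters whose 4 values were nearest those of Mgmt, by Euclidean distance over the 4 tumors among windows with at least 5 sites on other chromosomes or over 100 kb away, were a window that Ppp1r3d and Fam217b share on chromosome 2 (41.9%, 67.1%, 46.4% and 77.3%, 82 sites, distance 2.86) and that of Ttc6 on chromosome 12 (42.6%, 66.5%, 47.6% and 77.8%, 27 sites, distance 2.93).

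The cell cycle inhibitors were unmethylated at their measured promoters. The p19Arf window of Cdkn2a (ENSMUSG00000044303, minus strand of chromosome 4, TSS at 89294653, 49 sites) had 3.12% and 2.54% in 344SQP and 2.88% and 3.21% in 344SQR, a difference of 0.216 points that became −0.0718 without replicate 2 of 344SQP. Its largest site difference was at 89294349 in the coding part of exon 1, where 16.9% of 89 reads and 15.9% of 63 reads were methylated in 344SQP and 26.0% of 77 reads and 31.0% of 29 reads in 344SQR, which did not pass the test among all sites (FDR = 0.116). The window of p16Ink4a (TSS at 89282192) had 39 sites with any read but 0 with 20 reads in any tumor, so its methylation was not measurable at this depth. Cdkn2b (ENSMUSG00000073802, TSS at 89311039, 47 sites) had 2.09% and 1.70% in 344SQP and 1.75% and 1.27% in 344SQR, a difference of −0.379 points that became 0.155 in a window of 250 bp on each side. Neither difference passed the test (FDR = 0.881 and 0.145). Of the 49 p19Arf sites, 1 was called lower and 2 higher, and of the 47 Cdkn2b sites 2 and 2. Over all sites, 18.4% were called lower and 6.04% higher.

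What stood out at these genes was the depth. The p19Arf window was covered by 77.7 and 53.7 calls per 1000000 autosomal calls in 344SQP and 53.5 in replicate 1 of 344SQR, but by 15.0 in replicate 2 of 344SQR. For Cdkn2b the values were 34.9, 24.2, 19.6 and 8.19. Replicate 2 of 344SQR was thus at 0.244 and 0.312 of the mean of the other 3 tumors. The p19Arf and Cdkn2b windows were the lowest of the 26640 autosomal windows with at least 500 calls per tumor on average, of which 5 (0.0188%) were under 0.5 of that mean. The others of these 5 were Smg8, Gm43752 and Gm15829, on chromosomes 11, 5 and 16, none of them below 0.382. The remaining member windows had ratios of 0.829 to 1.34 in this tumor. In replicate 1 of 344SQP the depth of the p19Arf and Cdkn2b windows was 1.91 and 2.01 times the mean of the others, which includes the low tumor.

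Among the runs measured, the low depth was found in neighbouring ones only. Between 89101926 and 89793104 on chromosome 4 there were 24 runs of CpGs with at least 300 calls summed over the tumors. In the 4 runs from 89281852 to 89311280, which hold exon 1 of p16Ink4a, exon 1 of p19Arf and parts of both exons of Cdkn2b, the ratio in replicate 2 of 344SQR was 0.213 to 0.313. In the other 20 runs it was 0.615 to 1.37. The nearest run on the lower side, from 89272282 to 89277249, had a ratio of 0.955 and held exon 3 of Cdkn2a. The nearest on the upper side, starting at 89480800, had 66, 65, 80 and 90 calls in the tumors. No run between 89311280 and 89480800 had enough calls, so the upper end of the low depth was not located. Exon 2 of Cdkn2a had only 5 to 9 calls per tumor. The region was picked after its values were seen. Copy number was not measured, and which cells gave the remaining reads was not tested. The methylation of both promoters in this tumor rests on a median of 29 and 30 reads per site, against 61 to 101 in the other tumors. In the p19Arf window, 134, 117 and 132 sites had at least 20 reads in the other tumors, in order, and 49 in this tumor. The low tumor thus limited the sites used. With a minimum of 10 reads the p19Arf window held 106 sites, and the difference between the lines was 0.0546 points.

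**Figure D3:**
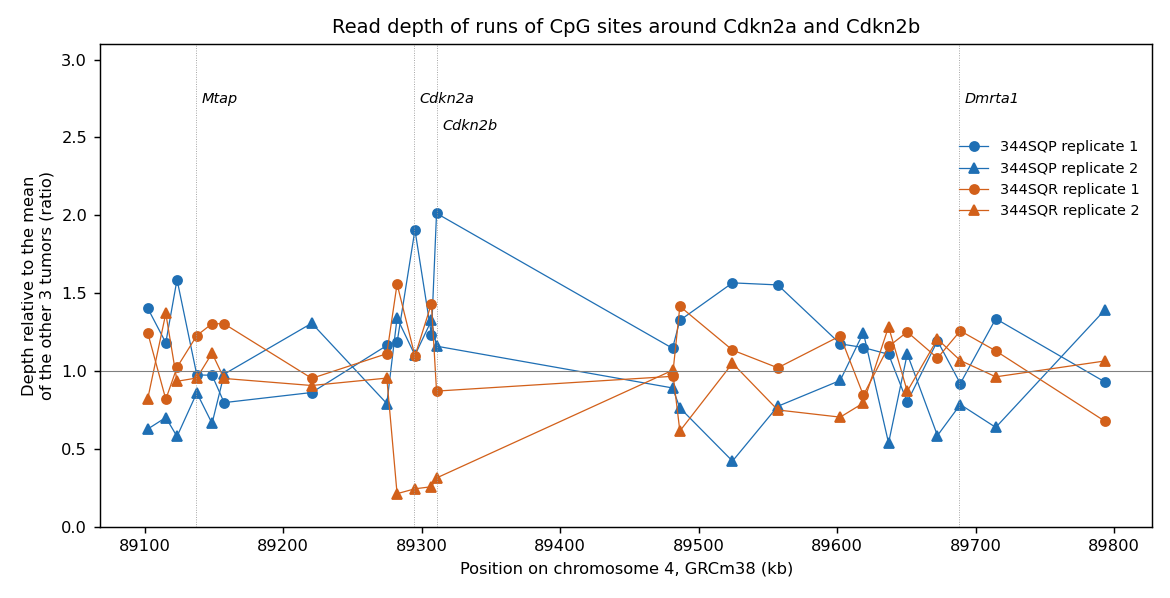
Depth of the 24 runs of CpGs around Cdkn2a and Cdkn2b on chromosome 4, as the calls per 1000000 autosomal calls of a tumor divided by the mean of the other 3 tumors, against position (kb); dotted lines mark the TSSs of Mtap, Cdkn2a (p19Arf), Cdkn2b and Dmrta1. Replicate 2 of 344SQR (orange triangles) is at 0.213 to 0.313 in 4 runs from 89281852 to 89311280 and at 0.615 to 1.37 elsewhere.

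Exon 2 of Cdkn2b, outside the promoter window, differed more than any promoter of the set. At its 10 coding sites from 89307123 to 89307170, with 27 to 133 reads, methylation was 27.8% and 53.5% in 344SQP and 9.02% and 15.6% in 344SQR. The line means were 40.6% ± 18.2 and 12.3% ± 4.69 (SD, n = 2 each). All 10 sites were called lower, against 29.7% of all sites outside promoter windows. This exon lies within the region of low depth in replicate 2 of 344SQR, where it had 319 calls against 784, 979 and 1196. The exon is shown around these sites (chr4:89307109-89307189, GRCm38, minus strand, measured CpGs in capitals).
Cdkn2b: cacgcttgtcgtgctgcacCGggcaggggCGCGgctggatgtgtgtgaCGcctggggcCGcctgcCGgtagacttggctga

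At the other end, 11 sites of Cdkn2a from 89274730 to 89275131, in and beside exon 3, had 21.9% and 57.9% in 344SQP and 28.1% and 67.8% in 344SQR. Of these sites 6 were called higher and 1 lower, against 6.97% and 29.7% of all sites outside promoter windows. Here again the tumors of a number were alike.

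Rassf1 and Apc were unmethylated in every tumor. The windows of Rassf1 on chromosome 9 (ENSMUSG00000010067, plus strand) at the TSSs 107551555 and 107551567 shared 12 sites, with 1.74% and 0.950% in 344SQP and 1.73% and 1.40% in 344SQR, a difference of 0.220 points that became −0.174 without replicate 2 of 344SQP. That at 107554583 had 27 sites, with 1.11% and 1.31% against 1.63% and 1.21%. No site of Rassf1 was called in either direction. The Apc window on chromosome 18 (ENSMUSG00000005871, plus strand, TSS at 34220984, 79 sites) had 1.53% and 1.54% in 344SQP and 1.18% and 1.37% in 344SQR, a difference of −0.265 points (FDR = 0.191). In a window of 250 bp on each side it was −0.320 points and passed (FDR = 0.0207). The TSS at 34247698 had 0 usable sites. At 34220486, upstream of the Apc TSS, 14.0% of 121 reads (95% Wilson interval 8.96–21.4) and 14.5% of 117 reads (9.27–22.0) were methylated in 344SQP and 7.04% of 142 reads (3.87–12.5) and 2.70% of 111 reads (0.923–7.65) in 344SQR, and this site was called lower.

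Inside Mgmt, Dapk1 and Cdh13, the mean of the CpGs outside the gene's promoter windows was lower in both 344SQR tumors than in both 344SQP tumors. In Mgmt, 67 such sites had 87.0% and 82.0% in 344SQP and 75.4% and 64.2% in 344SQR, and 43 of them were called lower and 0 higher, while its promoter was called higher. Of all sites of the series outside promoter windows, 29.7% were called lower and 6.97% higher. In Dapk1, 55 sites had 85.9% and 80.6% against 78.0% and 62.2%, with 24 called lower and 0 higher. In Cdh13, 267 sites had 75.7% and 75.2% against 69.6% and 60.1%, with 142 called lower and 22 higher. Rarb had 71.6% and 79.0% against 68.8% and 70.4% over 11 sites, with 5 called lower and 1 higher. In Mgmt, Dapk1 and Cdh13 replicate 2 of 344SQR was the lowest tumor, as it was over the 476331 sites of the series outside all promoter windows, with 58.9% and 60.2% in 344SQP and 55.7% and 52.6% in 344SQR.

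Split into runs at gaps over 500 bp, both 344SQR tumors were below both 344SQP tumors in 13 of 18 runs of Mgmt, 7 of 13 of Dapk1 and 49 of 72 of Cdh13, against 47.9% of the runs outside promoter windows in the series. The clearest run of at least 3 sites in Mgmt was at 136947086 to 136947257, with 87.0% in each 344SQP tumor and 65.0% and 43.2% in 344SQR over 4 sites. In Cdh13 it was at 119271928 to 119272007, with 74.5% and 77.5% against 48.6% and 28.1% over 4 sites. In Apc, the mean of 9 coding and intron sites was 96.2% to 97.5% across the tumors, and 0 were called.

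**Figure D4:**
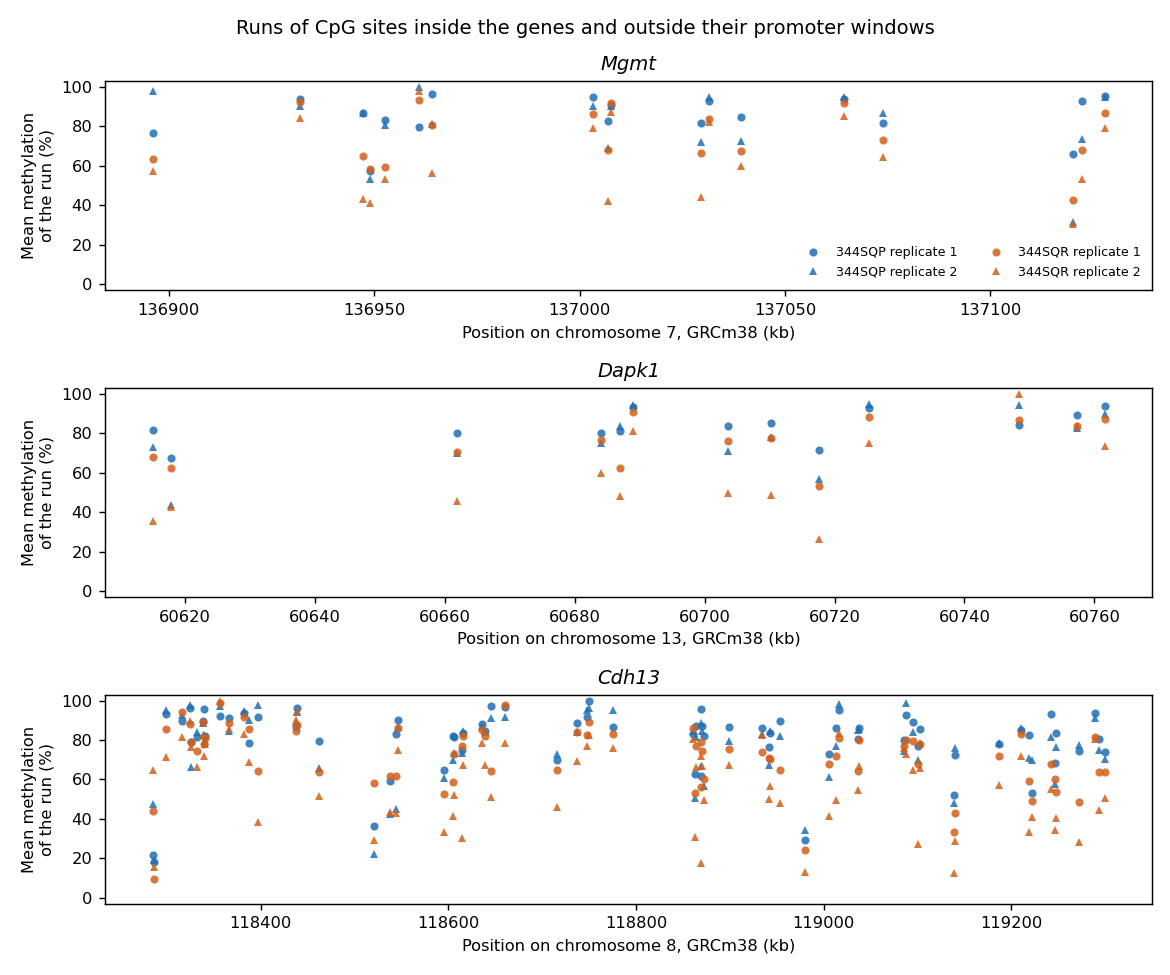
Mean methylation (%) of runs of CpG sites inside Mgmt, Dapk1 and Cdh13 and outside their promoter windows, against position (kb); blue is 344SQP, orange 344SQR, circles replicate 1 and triangles replicate 2. Replicate 2 of 344SQR is the lowest tumor in 17 of 18 runs of Mgmt, 11 of 13 of Dapk1 and 59 of 72 of Cdh13. It is also the lowest over the 476331 sites of the series outside all promoter windows, at 52.6%. The same count over all runs of the series was not made.

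The members were set beside lists of related genes, with the window of most sites for each gene. By this count 2 of the 9 members were lower and 1 higher, where 29.1% of all genes were lower and 8.80% higher. Of 20 measured cell cycle inhibitors and core tumor suppressors, 0 were lower and 1 was higher, Cdkn1c, the imprinted inhibitor p57Kip2 (34.2% and 30.9% in 344SQP, 33.5% and 54.0% in 344SQR). The other 19, among them Rb1, Stk11, Smad4 and Trp53, were under 10% in every tumor. Of 19 measured relatives of the members, 2 were lower and 3 higher. Dapk2, a kinase related to Dapk1, was lower, with 4.16% and 6.13% in 344SQP and 2.05% and 2.75% in 344SQR, and Cdh4 was higher, with 39.2% and 70.6% against 42.9% and 78.0%.

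Of 27 other measured genes that are methylated in human lung cancer, 13 were lower and 4 higher by the read-based test. Over all genes, 29.1% were lower and 8.80% higher. Sema3b, a secreted semaphorin gene from the same lung cancer region as Rassf1, differed most among genes with at least 5 sites (80.5% and 74.4% in 344SQP, 41.8% and 39.4% in 344SQR, 7 sites, adjusted p = 0.240 by edgeR). Gstp1, a glutathione transferase gene, had 11.5% and 11.4% in 344SQP and at most 2.07% in 344SQR (mean 1.98%) over 13 sites (adjusted p = 0.0682 by edgeR). Runx3, a transcription factor of the TGF-β response, had 12.8% and 21.5% against 8.03% and 13.7% over 109 sites, so that the lines overlapped. Sox17, an endoderm factor, was called higher, with 34.8% and 57.9% against 45.1% and 71.6% over 25 sites, and here too the lines overlapped. edgeR called 0 genes of any of these lists.

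Promoters of cell type markers were read the same way, and edgeR called 0 of them. Of 12 leukocyte markers only Cd3e (2 sites) and Spi1 (1 site) could be measured. Cd3e had 81.1% and 75.8% in 344SQP and 81.5% and 46.6% in 344SQR, and Spi1, which was not called, had 43.8% and 88.5% against 36.2% and 83.1%. Of 6 measured epithelial markers 2 were lower and 1 higher, and of 6 measured fibroblast and endothelial markers 1 was lower and 2 higher, beside the 29.1% and 8.80% of all genes. The part of cell composition in the differences of the members was not tested.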

How the data were processed

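Reduced representation bisulfite sequencing of 2 tumors of 344SQP and 2 of 344SQR was used, grouped by the sample labels. The authors trimmed reads (Trim Galore 0.4.1, cutadapt 1.9.1), mapped them to mm10 with Bismark and Bowtie 1.1.2, and deposited for each tumor the coverage count of every CpG and strand and the percent of reads methylated, not normalized and not pooled. Methylated reads were recomputed as coverage times percent, rounded to whole reads, and gave back every deposited percent within 0.05 points. Windows used the GENCODE vM21 basic annotation. Per site, reads pooled by line were compared by likelihood ratio as methylKit does without overdispersion, with p not below 2.2e-16, windows by signed two-sided Stouffer z, both with Benjamini-Hochberg adjustment over the whole series. edgeR 4.0.16 (R 4.3.3) tested summed methylated and unmethylated reads with an effect for each tumor. Depth used all calls without a coverage minimum, per 1000000 autosomal calls; this measure and the chromosome 4 region were chosen after the data were seen, in place of the planned median coverage. Other thresholds, windows and TSSs and each tumor left out were tried as alternatives; curated RefSeq TSSs were added after seeing the data. Sequences are from RefSeq GRCm38. The scripts were tested on simulated data. Python 3.11.15, numpy 2.4.6, scipy 1.17.1 and pandas 2.3.3 were used. Members and lists were chosen with earlier results of these data known. Named besides the members were list genes called with at least 5 sites, at least 10 points and no overlap (at most 8), and the 3 windows most like the member with the largest difference; other list genes were chosen after their values were seen.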

Additional observations from a re-analysis of the deposited data

How the results depend on the processing

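For the differences of the member windows, 106 of 129 values under the alternatives kept their direction and side of the threshold, 14 changed side, and 9 reversed. Coverage minimums of 10 and 50 reads, added strands and thinned reads reversed none of them. In windows of 250 bp on each side, Cdkn2b had 0.155 points, and 51 member sites were called against 78; the smaller window holds 196 of the 354 sites. Leaving out each tumor in turn gave −5.33 to 22.0 points for Mgmt, −9.07 to 15.2 for Cdh13, −7.92 to 4.22 for Rarb, −0.0718 to 0.504 for the p19Arf window of Cdkn2a and −0.174 to 0.614 for the shared Rassf1 windows. The read-based test has no term for the spread between tumors, so these fits treat a lone tumor as its line. The cause of these reversals was not tested.

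edgeR called 52 windows against 11415 in the read-based test, and 0 member windows against 5. Curated RefSeq TSSs, chosen after seeing the data, gave 6301 of 18809 windows called and 5 of 11 member windows. The replicate number was used as a block only here, because the tumors come from different mice and the labels give only a shared number. Tumors of the same number deviated together (r = 0.819 between the replicate gaps of the lines over 27520 windows, which are not independent), a hint from the data and not the design. With the replicate block edgeR called 3542 windows in all and 4 member windows, those of Timp3 and Dapk1, and the Mantel-Haenszel test 11030, with 5 member windows and 71 member sites.

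Depth limits single sites most: at 20 reads, 1 read is worth 5 points. The p16Ink4a window and an Apc window could not be measured.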

Other observations

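Calls on chromosome Y per 1000000 autosomal calls were 413 and 257 in replicates 1 and 2 of 344SQP and 563 and 180 in 344SQR. In promoter windows of Y-linked genes the pattern was another. The window of Usp9y had 33 and 57 calls in 344SQP and 0 and 0 in 344SQR, that of Ddx3y 29 and 55 against 0 and 0, and that of Eif2s3y 32 and 68 against 10 and 6. The hosts were female. Which cells these reads came from was not tested.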
